A study of Mus musculus with 18 samples.

Results

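The genes described here are 9 CXC chemokines and relatives that macrophages can make: Cxcl1, Cxcl2, Cxcl3, Cxcl9, Cxcl10, Cxcl13, Cxcl14, Cxcl16 and Pf4. They were chosen by gene symbol, with earlier results of these data known, and are 9 of the 23511 genes in the table. All 9 passed the filter on low counts and are among the 16609 genes tested. RNA was sequenced in bulk from macrophages of the mouse peritoneal cavity, sorted as low or high for surface Tim-4, a receptor for phosphatidylserine found on resident macrophages of body cavities. Each sorted population came from 3 kinds of mice, with 3 libraries each, so that 18 libraries form 6 groups.

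No-tumor mice received no tumor cells, and no antibody is named for them. Isotype mice carried MC38-LG, a derivative of a mouse colon carcinoma line placed in the peritoneal cavity, and are labelled with the isotype control antibody. Anti-Tim-4 mice carried the same tumor and received anti-Tim-4 on day 7 after tumor challenge. The cells were sorted by Tim-4, the target of this antibody. In comparisons that use anti-Tim-4 mice, a change within cells and a change in which cells were sorted as low or high therefore cannot be told apart. Cells of tumor-bearing mice were collected on day 10, and the no-tumor mice were harvested on the same day. The sources used here do not give strain, sex or age, and the tumor comparison sets isotype-treated mice against mice with no named antibody, so tumor and isotype antibody cannot be told apart there. The libraries of a group are called triplicates without a word on whether each is its own mouse. The p-values therefore reflect only how much these libraries vary, and part of that spread may be technical.

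CXC chemokines are small secreted proteins that attract leukocytes through receptors of the CXCR family. Those with the ELR motif, here Cxcl1, Cxcl2 and Cxcl3, act on CXCR2 and draw neutrophils, while Cxcl9 and Cxcl10 are induced by interferons and draw T and NK cells through CXCR3. Cxcl13 attracts B cells through CXCR5 and is a known product of resident cavity macrophages, and Cxcl16 is made as a membrane protein that binds CXCR6 and also acts as a scavenger receptor. Pf4 (Cxcl4) is best known from platelets but is also expressed by resident macrophages, and Cxcl14 is a conserved chemokine of epithelia and other tissues.

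Of the 9 genes, 7 lie on chromosome 5 (mm10). Pf4 and Cxcl3 are 12.7 kb apart there, Cxcl1 and Cxcl2 10.8 kb, and Cxcl9 and Cxcl10 18.6 kb. Cxcl14 lies on chromosome 13 and Cxcl16 on chromosome 11. RefSeq promoter sequences (GRCm38.p6) were matched for 8 of the 9. The promoter windows of 4 genes run 5′ to 3′ on the gene's strand, from position -250 to -31 from the RefSeq start. They are shown because Cxcl1, Cxcl2 and Cxcl3 share the 11 bases GGGAATTTCCC, and because Cxcl10 holds both kinds of motif marked. The choice was made with the changes of these genes known. AP-1, TATA box and GAS motifs were searched as well and are not marked. Capitals mark matches, on either strand, to NF-kB motifs (GGG, any 3 bases and TTCC, or the NF-kB consensus, which overlap) and to the interferon response motif ISRE (GAAA, any 2 bases and GAAA).
Cxcl1, chr5:90890995-90891214, plus strand: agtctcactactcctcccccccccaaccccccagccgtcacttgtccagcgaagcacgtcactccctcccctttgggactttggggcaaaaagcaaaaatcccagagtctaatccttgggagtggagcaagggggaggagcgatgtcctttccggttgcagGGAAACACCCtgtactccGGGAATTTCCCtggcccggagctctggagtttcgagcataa
Cxcl2, chr5:90903649-90903868, plus strand: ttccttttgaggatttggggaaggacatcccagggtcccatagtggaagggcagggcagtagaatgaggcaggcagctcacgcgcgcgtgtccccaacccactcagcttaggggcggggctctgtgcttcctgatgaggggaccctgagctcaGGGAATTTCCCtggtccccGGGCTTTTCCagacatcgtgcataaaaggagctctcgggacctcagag
Cxcl3, chr5:90785851-90786070, plus strand: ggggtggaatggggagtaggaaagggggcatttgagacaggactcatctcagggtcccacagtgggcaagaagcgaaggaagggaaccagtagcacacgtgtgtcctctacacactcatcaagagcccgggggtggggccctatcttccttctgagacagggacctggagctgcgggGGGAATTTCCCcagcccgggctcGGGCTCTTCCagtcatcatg
Cxcl10, chr5:92348920-92349139, minus strand: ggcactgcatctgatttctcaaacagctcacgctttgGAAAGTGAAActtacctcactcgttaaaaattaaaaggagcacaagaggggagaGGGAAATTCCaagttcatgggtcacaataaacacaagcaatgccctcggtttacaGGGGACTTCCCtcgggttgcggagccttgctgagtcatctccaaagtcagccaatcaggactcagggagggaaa

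The shared 11 bases begin at position -71 from the start of Cxcl1, -97 from that of Cxcl2 and -73 from that of Cxcl3. The first NF-kB pattern was found in the 300-base promoters of Cxcl1, Cxcl2, Cxcl3 and Cxcl10, and in 5.56% of 32851 RefSeq promoters of that length. The ISRE letters were found in Cxcl10 and Cxcl14, and in 3.44% of all promoters. The promoters of Cxcl9, Cxcl13 and Pf4 held neither set of letters. A match is a description of the sequence, and binding was not measured.

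Library totals lay between 24530070 and 34110392 estimated counts. Levels are in CPM, a gene's counts relative to its library's TMM-scaled total. A change is named as called where the Benjamini-Hochberg adjusted p over the 16609 genes was under 0.05, in edgeR's quasi-likelihood test with all 6 groups in 1 model, and ± after a log2 fold change is its standard error. Macrophage markers were abundant in every library, with 10 of 10 detected and summed levels of 22600 to 52700 CPM. Both no-tumor libraries 1 held B cell markers (251 and 805 CPM summed over 7 genes, against 71.0 to 104 in the other no-tumor libraries) and mast cell markers. Both isotype libraries 3 held neutrophil markers (317 and 332 CPM over 9 genes, against 80.6 to 104 in the other isotype libraries) and T and NK cell markers. They were also the highest of their groups for dendritic cell, B cell, mast cell, and mesothelial and stromal markers. Dendritic cell markers summed to 63.8 and 50.4 CPM there against 12.9 to 15.5, and B cell markers to 28.7 and 34.5 against 3.59 to 7.17. In both no-tumor libraries 2 the interferon-responsive gene Irf1 stood high. In bulk RNA, fewer cells of a type and less RNA per cell cannot be told apart.

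**Figure D1:**
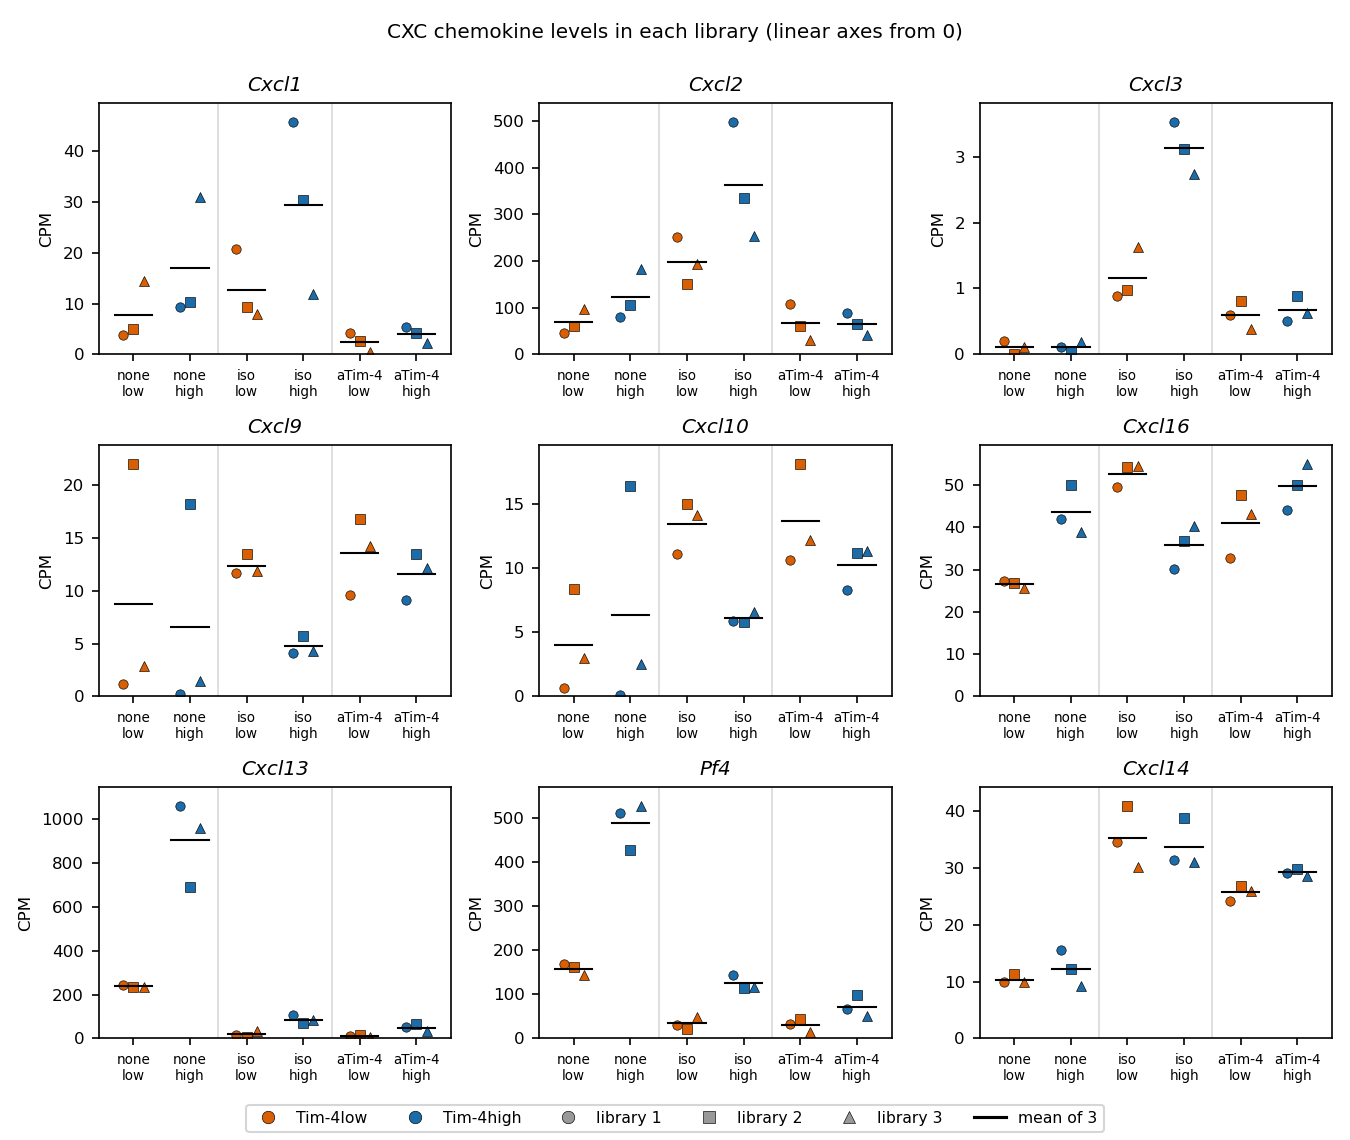
Level of each of the 9 genes in each of the 18 libraries, in CPM on linear axes from 0, with the mean of 3 libraries as a bar; none, iso and aTim-4 are the no-tumor, isotype and anti-Tim-4 mice, and low and high are the Tim-4 populations. Cxcl13 and Pf4 were highest without a tumor in Tim-4high cells, Cxcl1, Cxcl2 and Cxcl3 had their highest means in isotype Tim-4high cells, and a single library per population carried Cxcl9 and Cxcl10 without a tumor.

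Without a tumor the repertoire was mainly Cxcl13 and Pf4. Levels of different genes were set on a rough common scale, CPM per kilobase of merged exon. Cxcl13 stood there at 787 ± 167 (SD, n = 3) and Pf4 at 676 ± 75.1 in no-tumor Tim-4high cells, and Cxcl2 came next at 59.5 ± 26.1. Together the first pair made up most of the 9 genes' summed level: 50.2% was Cxcl13 and 43.6% Pf4 in Tim-4high cells, and 42.8% and 45.5% in Tim-4low cells. The summed level was 1284 to 1696 CPM per kilobase in the no-tumor Tim-4high libraries and 474 to 488 in the no-tumor Tim-4low libraries.

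In isotype mice the sum was lower, at 397 to 591 CPM per kilobase in Tim-4high and 167 to 240 in Tim-4low libraries, and its make-up differed. Cxcl2 held 36.3% in isotype Tim-4high and 44.9% in isotype Tim-4low cells, against 3.83% and 6.89% without a tumor. Cxcl13 held 15.8% and 7.46% there. With anti-Tim-4 the sum was 162 to 268 CPM per kilobase in Tim-4high and 79.3 to 148 in Tim-4low libraries, and Pf4 led both populations with 45.3% and 33.3%. Cxcl3 was the lowest of the 9 in every group, at no more than 0.191% of the sum. Lengths are of merged exons, and with the longest transcript in their place Pf4 stood above Cxcl13 in no-tumor Tim-4high cells and above Cxcl2 in isotype Tim-4high cells. The order within these pairs therefore rests on the length used. For Cxcl1, Cxcl2, Cxcl3 and Cxcl10 the merged exons span the whole gene, at 1875, 2068, 3498 and 2252 bases. Their longest transcripts are nearly as long, at 1871, 2066, 3498 and 2230 bases. How the shares would stand with a shorter, spliced length was not tested.

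**Figure D2:**
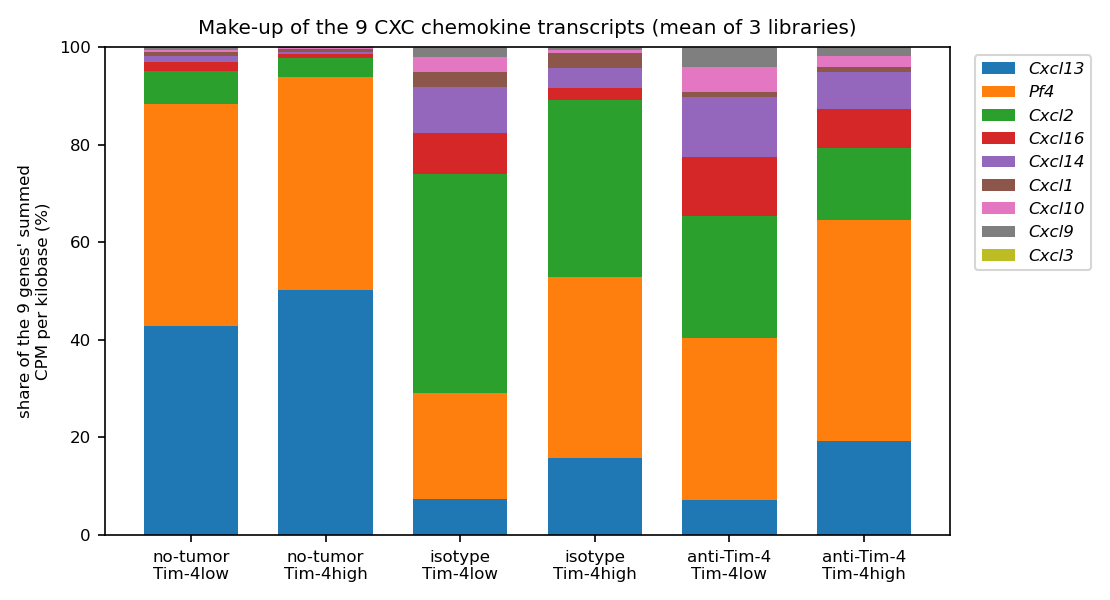
Share of each gene in the summed CPM per kilobase of the 9 genes, in percent, as the mean of 3 libraries for each of the 6 groups. Cxcl13 and Pf4 fill most of both no-tumor bars, while Cxcl2 reaches 44.9% in isotype Tim-4low and 36.3% in isotype Tim-4high cells.

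Among the neutrophil attractants, Cxcl2 and Cxcl3 rose with the tumor in both populations, and Cxcl1, Cxcl2 and Cxcl3 fell with anti-Tim-4 in Tim-4high cells. Each of these antibody calls was lost in some fits with 1 library left out (highest edgeR adjusted p = 0.153, 0.0706 and 0.0963). Cxcl2 (chr5:90903871-90905938, plus strand) is made early by activated macrophages. In Tim-4high cells Cxcl2 stood at 79.8, 106 and 183 CPM without a tumor, at 498, 334 and 253 with isotype, and at 88.7, 65.6 and 41.7 with anti-Tim-4, in libraries 1, 2 and 3. In Tim-4low cells Cxcl2 stood at 46.8, 61.0 and 97.7 CPM without a tumor, at 252, 151 and 193 with isotype, and at 108, 61.9 and 29.9 with anti-Tim-4. In both populations every isotype library was above every no-tumor and every anti-Tim-4 library, and the no-tumor and anti-Tim-4 libraries overlapped.

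The tumor raised Cxcl2 by 1.56 ± 0.44 on the log2 scale in Tim-4high cells (edgeR adjusted p = 0.00812) and by 1.54 ± 0.44 in Tim-4low cells (edgeR adjusted p = 0.00934). With anti-Tim-4, Cxcl2 fell by 2.47 ± 0.46 in Tim-4high cells, or 5.54-fold (edgeR adjusted p = 0.0097). The change in Tim-4low cells was -1.58 ± 0.44 and did not pass (edgeR adjusted p = 0.152). The antibody and tumor comparisons share the isotype libraries, so they are not independent.

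Cxcl1 (chr5:90891241-90893115, plus strand), the other early neutrophil attractant, was scattered within groups. In Tim-4high cells Cxcl1 stood at 9.34, 10.3 and 31.0 CPM without a tumor, at 45.7, 30.4 and 11.9 with isotype, and at 5.44, 4.23 and 2.16 with anti-Tim-4. In Tim-4low cells Cxcl1 stood at 3.91, 5.07 and 14.4 CPM without a tumor, at 20.8, 9.36 and 7.93 with isotype, and at 4.28, 2.69 and 0.528 with anti-Tim-4. The no-tumor and isotype libraries overlapped in both populations, while the anti-Tim-4 libraries lay below all isotype libraries in both. No change of Cxcl1 with the tumor passed (0.80 ± 0.66 in Tim-4high and 0.69 ± 0.68 in Tim-4low cells, edgeR adjusted p = 0.333 and 0.415). With anti-Tim-4, Cxcl1 fell by 2.90 ± 0.73 in Tim-4high cells (edgeR adjusted p = 0.029), and its change of -2.35 ± 0.74 in Tim-4low cells did not pass (edgeR adjusted p = 0.204). In Tim-4high cells the anti-Tim-4 libraries were also below all no-tumor libraries, a pair for which no test was made.

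Cxcl3 (chr5:90786103-90789600, plus strand) was close to the floor without a tumor, with 10.0 counts summed over the no-tumor Tim-4low libraries and 9.004 over the no-tumor Tim-4high libraries. In Tim-4high cells Cxcl3 stood at 0.112, 0.0395 and 0.189 CPM without a tumor, at 3.53, 3.12 and 2.73 with isotype, and at 0.505, 0.885 and 0.622 with anti-Tim-4. In Tim-4low cells Cxcl3 stood at 0.209, 0 and 0.110 CPM without a tumor, at 0.888, 0.977 and 1.63 with isotype, and at 0.602, 0.806 and 0.381 with anti-Tim-4. In Tim-4high cells no library of one condition overlapped with another condition, and the isotype libraries were highest.

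The tumor raised Cxcl3 by 4.72 ± 0.58 on the log2 scale, or 26.4-fold, in Tim-4high cells (edgeR adjusted p = 7.35e-06) and by 3.43 ± 0.58 in Tim-4low cells (edgeR adjusted p = 0.000158), the largest rise with the tumor among the 9 genes in both populations. These folds rest on few counts in the denominator. Anti-Tim-4 lowered Cxcl3 by 2.21 ± 0.46 in Tim-4high cells (edgeR adjusted p = 0.0152), while the change in Tim-4low cells was -0.97 ± 0.46 (edgeR adjusted p = 0.412). The tumor and antibody changes of Cxcl1, Cxcl2 and Cxcl3 were not shown to differ between the populations (edgeR adjusted p = 0.316 to 0.992 for the 6 interactions), except that of Cxcl2 with the antibody when library numbers were a block (0.76, edgeR adjusted p = 0.0246).

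Neutrophil genes also differed between these groups. S100a9, an abundant neutrophil gene, stood at 0.0395 to 1.16 CPM in the no-tumor libraries, at 18.6, 19.6 and 104 in isotype Tim-4high, at 12.7, 25.5 and 118 in isotype Tim-4low and at 7.02 to 10.8 in anti-Tim-4 Tim-4high libraries. It rose with the tumor (6.57 ± 1.13 in Tim-4high and 6.84 ± 1.12 in Tim-4low cells, edgeR adjusted p = 0.000181 and 0.000131), as did S100a8 (4.67 and 5.30, edgeR adjusted p = 5.43e-05 and 2.34e-05). Its change with anti-Tim-4 in Tim-4high cells was -2.48 ± 0.82 and did not pass (edgeR adjusted p = 0.0727). The sum over all 9 neutrophil markers did not show this rise, at 113 to 263 CPM without a tumor, because Csf3r made up most of it there (114 CPM on average in Tim-4low and 239 in Tim-4high cells).

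The sum was highest in both isotype libraries 3, at 317 CPM in Tim-4high and 332 in Tim-4low cells, and the chemokines did not follow it in the same way in both. In isotype Tim-4high library 3, Cxcl1, Cxcl2 and Cxcl3 were the lowest of their group. In isotype Tim-4low library 3, Cxcl3 was the highest, Cxcl1 the lowest and Cxcl2 between the others. Without both isotype libraries 3, Cxcl2 and Cxcl3 were still called with the tumor, at 1.76 and 4.81 in Tim-4high cells (edgeR adjusted p = 0.00998 and 3.02e-05) and at 1.56 and 3.11 in Tim-4low cells (edgeR adjusted p = 0.0201 and 0.00122). The part of neutrophils in the remaining libraries was not tested.

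The genes most like Cxcl1 across the 18 libraries by Pearson correlation of log2 CPM were Dusp1 (r = 0.916), a phosphatase gene induced within minutes of stimulation, Cxcl2 (0.888) and Nfkbiz (0.874). Those most like Cxcl2 were the atypical chemokine receptor Ccrl2 (0.925), Dusp1 (0.921) and Plk2 (0.894).

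These correlations span groups and so share the group differences. After the group means were removed, Cxcl1 and Cxcl2 still moved together from library to library (r = 0.95 over 18 libraries), while Cxcl2 and Cxcl3 did so weakly (r = 0.206). Dusp1, an early-response gene that cell handling can also induce, had a mean of 1186 CPM in isotype Tim-4high cells, 737 in no-tumor Tim-4high cells and 355 in anti-Tim-4 Tim-4high cells. The part of handling in the Cxcl1 and Cxcl2 levels was not tested.

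**Figure D3:**
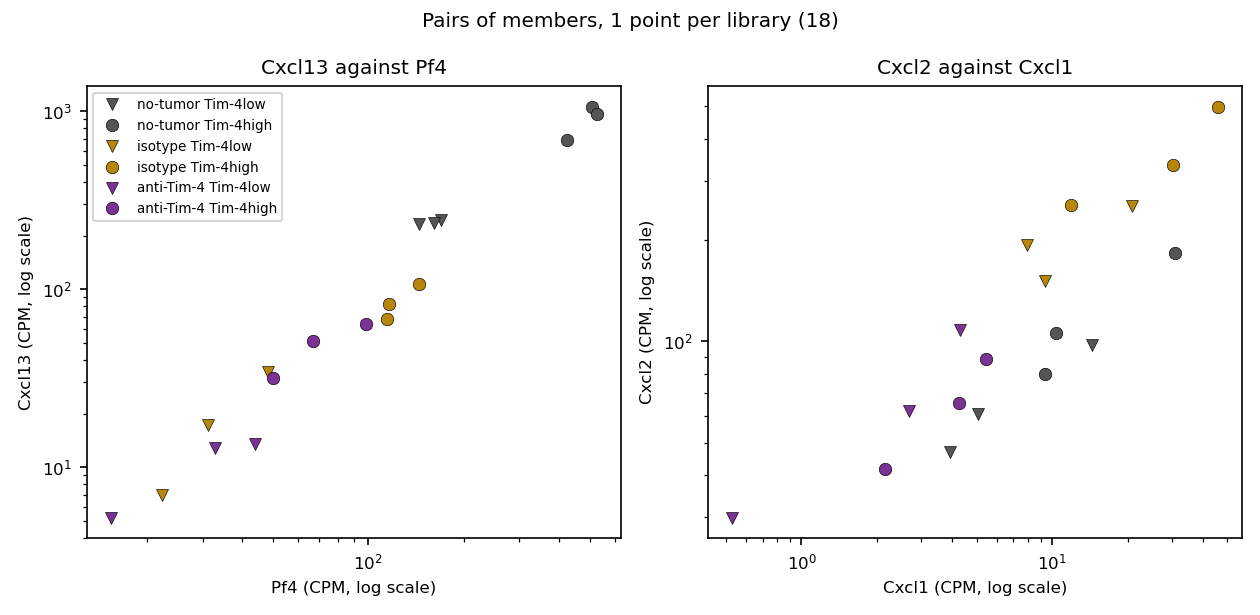
Pairs of genes over the 18 libraries, both axes in CPM on log scales, 1 point per library, coloured by condition with triangles for Tim-4low and circles for Tim-4high cells. Cxcl13 and Pf4 lie along 1 line from the anti-Tim-4 Tim-4low to the no-tumor Tim-4high libraries, while for Cxcl1 and Cxcl2 the no-tumor libraries overlap with the tumor libraries, with Cxcl2 5.91 to 12.0 times Cxcl1 in the no-tumor and 10.9 to 56.6 times Cxcl1 in the tumor libraries.

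Many reads of these genes were assigned to transcript models that keep an intron. In the authors' transcript table the retained-intron model of Cxcl2 (Cxcl2-203) took 57.0% to 75.25% of the Cxcl2 counts, and that of Cxcl1 (Cxcl1-202) took 35.2% to 67.7% of the Cxcl1 counts in the 18 libraries. The protein-coding Pf4-201 took at least 95.06% of the Pf4 counts and Cxcl14-201 at least 98.39% of the Cxcl14 counts in the same libraries. In isotype mice the share of Cxcl2-203 was 57.0% to 62.0% in Tim-4high and 66.2% to 73.0% in Tim-4low libraries, with no overlap, and no test was made. Such assignments are model estimates, and the gene-level counts of Cxcl1 and Cxcl2 include them. Gene counts were whole numbers, to within 0.001, in all 18 libraries for Cxcl1, Cxcl9, Cxcl10 and Cxcl13, in 11 for Cxcl14, 9 for Pf4, 6 for Cxcl2, 5 for Cxcl3 and 0 for Cxcl16. A fraction means that a read was divided between features, and which features shared these reads was not tested.

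The interferon-induced pair, Cxcl9 (chr5:92321347-92328079, minus strand) and Cxcl10 (chr5:92346638-92348889, minus strand), showed no called change in any of the 7 comparisons between groups. In no-tumor Tim-4low libraries 1, 2 and 3, Cxcl9 stood at 1.19, 22.0 and 2.92 CPM, and in the Tim-4high ones at 0.187, 18.2 and 1.47. Cxcl10 stood at 0.663, 8.36 and 3.03 CPM in Tim-4low and at 0.0747, 16.4 and 2.53 in Tim-4high libraries without a tumor. In each of these groups library 2 was highest for both genes.

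With a tumor the pair was less scattered. Cxcl9 stood at 11.7, 13.5 and 11.8 CPM in isotype Tim-4low and at 4.14, 5.76 and 4.31 in isotype Tim-4high libraries. Cxcl10 stood at 11.1, 15.0 and 14.2 CPM in isotype Tim-4low and at 5.91, 5.80 and 6.58 in isotype Tim-4high libraries. For both genes every isotype Tim-4low library was above every isotype Tim-4high library. With anti-Tim-4, Cxcl9 lay between 9.09 and 13.5 CPM in Tim-4high and between 9.61 and 16.8 in Tim-4low libraries, and Cxcl10 between 8.27 and 11.3 and between 10.7 and 18.1. The anti-Tim-4 Tim-4high libraries were above all isotype Tim-4high libraries for both genes, and the populations overlapped under anti-Tim-4.

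No test on this pair passed in the model of all 6 groups, whose spread for each gene includes the no-tumor libraries. The Tim-4low over Tim-4high difference in isotype mice was 1.38 ± 1.00 on the log2 scale for Cxcl9 (edgeR adjusted p = 0.358) and 1.14 ± 0.87 for Cxcl10 (edgeR adjusted p = 0.385). Fitted on the isotype libraries alone, the differences were 1.38 and 1.14 and passed (edgeR adjusted p = 0.000949 and 0.00131). With library numbers as a block they also passed, at 1.39 and 1.13 (edgeR adjusted p = 0.000181 and 0.00604). The anti-Tim-4 change in Tim-4high cells was 1.29 ± 1.00 for Cxcl9 and 0.75 ± 0.87 for Cxcl10 (edgeR adjusted p = 0.441 and 0.625). Fitted on the compared groups alone it was 1.28 and 0.74 and passed (edgeR adjusted p = 0.00674 and 0.0137).

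The no-tumor libraries 2 decided the tumor comparison of this pair. With all libraries the change with the tumor was -0.47 ± 1.01 for Cxcl9 and -0.05 ± 0.88 for Cxcl10 in Tim-4high cells, and 0.50 ± 0.96 and 1.73 ± 0.88 in Tim-4low cells. Without both no-tumor libraries 2, an alternative chosen after seeing the data, Cxcl9 rose by 2.51 in Tim-4high and 2.56 in Tim-4low cells (edgeR adjusted p = 0.00168 and 0.000659). Cxcl10 rose by 2.23 and 2.82 (edgeR adjusted p = 0.0185 and 0.0037). Irf1, an interferon-induced transcription factor, stood at 90.9, 470 and 125 CPM in no-tumor Tim-4high libraries and at 79.0, 300.2 and 119 in no-tumor Tim-4low libraries, against 217 to 387 in the tumor-bearing ones. Library 2 was thus the highest of its group for Irf1 as well. Its change with the tumor was 0.08 in Tim-4high and 0.60 in Tim-4low cells and did not pass (edgeR adjusted p = 0.908 and 0.33), and without both no-tumor libraries 2 it was 1.16 and 1.34 and passed (edgeR adjusted p = 0.000166 and 6.17e-05). What set the no-tumor libraries 2 apart was not tested.

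**Figure D4:**
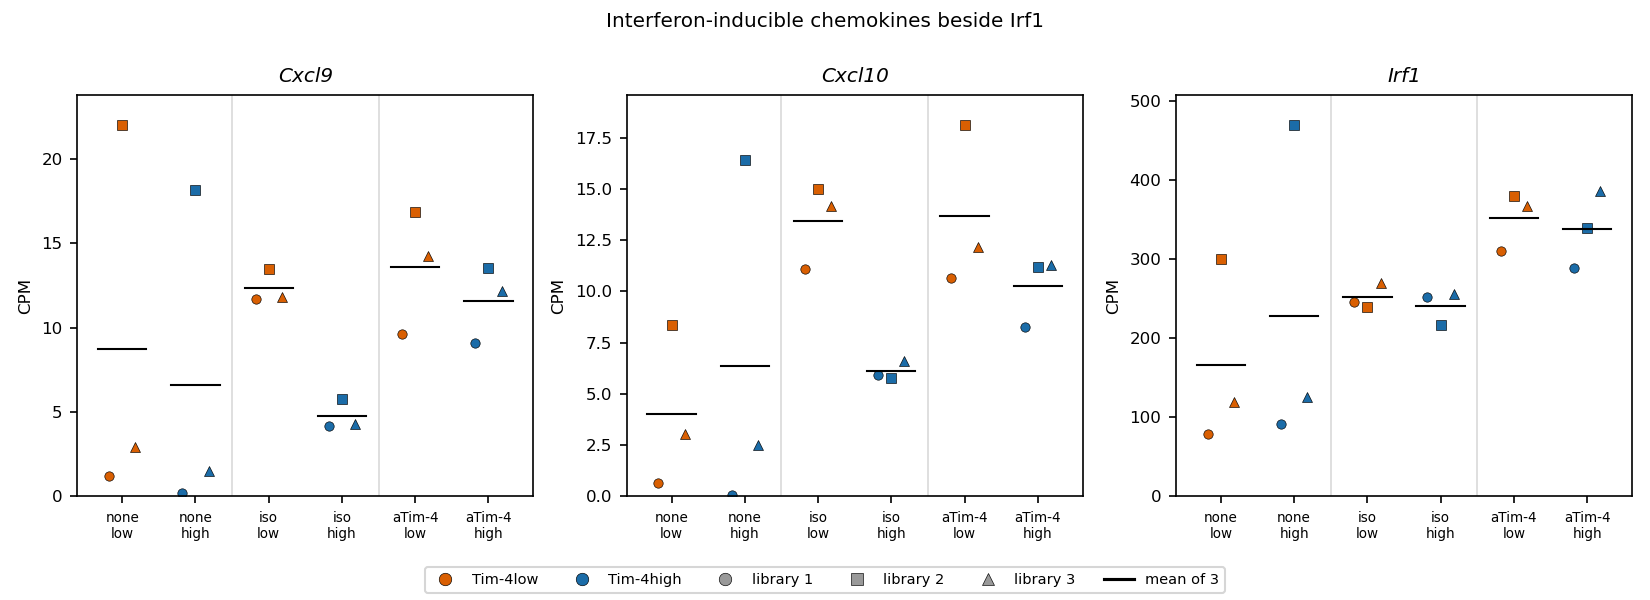
Levels of Cxcl9, Cxcl10 and Irf1 in each of the 18 libraries, in CPM on linear axes from 0, with the mean of 3 libraries as a bar. In both populations the no-tumor library 2 (square) stands above libraries 1 and 3 for all 3 genes, and Irf1 lies between 217 and 387 CPM in the 12 libraries of tumor-bearing mice.

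The genes most like Cxcl10 across the 18 libraries were Tmem106a (r = 0.955), Acod1 (0.938), the itaconate-producing enzyme of activated macrophages, and the interferon-induced Ifi35 (0.936). Those most like Cxcl9 were Trafd1 (0.914), Samhd1 (0.911) and Calhm6 (0.905). By Spearman correlation, which uses ranks, these values for Cxcl9 were 0.715, 0.645 and 0.711. Acod1 with Cxcl10 was 0.492 by rank, while Tmem106a and Ifi35 were 0.87 and 0.928. By rank the genes most like Cxcl9 were Stat2 (0.934), Trim21 (0.864) and Tor3a (0.837). Cxcl9 and Cxcl10 kept together once group means were removed (r = 0.956 over 18 libraries), a value to which the no-tumor libraries 2 contribute. Spearman correlation gave 0.633 for the same deviations. Within the 12 tumor libraries they correlated at 0.925.

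Cxcl16 (chr11:70453983-70459984, minus strand) was the one gene of the 9 called in opposite directions between the populations, without a tumor and with isotype. Without a tumor Cxcl16 stood at 27.2, 26.8 and 25.5 CPM in Tim-4low and at 41.8, 50.1 and 38.9 in Tim-4high libraries. With isotype it stood at 49.5, 54.2 and 54.4 in Tim-4low and at 30.2, 36.6 and 40.3 in Tim-4high libraries. With anti-Tim-4 it stood at 32.6, 47.5 and 43.1 in Tim-4low and at 44.2, 50.04 and 55.0 in Tim-4high libraries. The populations did not overlap without a tumor or with isotype, in opposite directions, and overlapped with anti-Tim-4.

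Cxcl16 was lower in Tim-4low cells without a tumor, by -0.72 ± 0.14 on the log2 scale (edgeR adjusted p = 0.00119), and higher in them with isotype, by 0.56 ± 0.13 (edgeR adjusted p = 0.00694). The tumor raised it by 0.99 ± 0.14 in Tim-4low cells, or 1.99-fold (edgeR adjusted p = 2.62e-05), and its change in Tim-4high cells was -0.29 ± 0.14 (edgeR adjusted p = 0.0865). The tumor's effect differed between the populations by 1.28 ± 0.19 (edgeR adjusted p = 0.00172), the one called interaction of the tumor among the 9 genes, where 3.53% of all genes tested were called. The difference passed with each of the 12 libraries left out in turn.

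Anti-Tim-4 raised Cxcl16 by 0.48 ± 0.13 in Tim-4high cells (edgeR adjusted p = 0.0429), and its change in Tim-4low cells was -0.36 ± 0.13 (edgeR adjusted p = 0.287). The antibody's effect differed between the populations by -0.84 ± 0.19 (edgeR adjusted p = 0.0362), again the one call among the 9, where 2.93% of all genes were called. This call was lost in 7 of the 12 fits that left out a library (edgeR adjusted p = 0.0222 to 0.119 over the 12), and the rise in Tim-4high cells was lost in 5 of 6 (0.0414 to 0.2). With the block, Cxcl9 (-1.17, edgeR adjusted p = 0.0104) also passed this interaction, as did Cxcl2. Since the sort used Tim-4 itself, a change in which cells were sorted cannot be told apart here from a change within them.

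Adam10, the main protease that sheds Cxcl16 from the membrane, rose with the tumor by 1.18 ± 0.12 in Tim-4high and 0.66 ± 0.12 in Tim-4low cells (edgeR adjusted p = 1.34e-06 and 0.000283), and Adam17 by 0.55 and 0.72 (edgeR adjusted p = 6.89e-05 and 6.22e-06). The gene most like Cxcl16 over the 18 libraries was Irf8 (r = 0.842), a transcription factor of the mononuclear phagocyte lineage. Irf8 was lower in Tim-4low cells without a tumor (-0.72, edgeR adjusted p = 0.0366) and higher in them with isotype (1.07, edgeR adjusted p = 0.00435). Its tumor effect differed between the populations by 1.79 (edgeR adjusted p = 0.00791). Blvrb (0.840) and Rgmb (0.832) followed.

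Cxcl13 (chr5:95956951-95961068, plus strand) and Pf4 (chr5:90772435-90773383, plus strand) behaved alike. Both were higher in Tim-4high cells, and both fell with the tumor in each population. Cxcl13 stood at 1062, 690 and 962 CPM in no-tumor Tim-4high and at 244, 237 and 233 in no-tumor Tim-4low libraries. With isotype Cxcl13 stood at 106, 68.1 and 82.2 CPM in Tim-4high and at 17.3, 6.99 and 34.1 in Tim-4low libraries. With anti-Tim-4 it stood at 51.1, 63.9 and 31.8 CPM in Tim-4high and at 12.8, 13.5 and 5.19 in Tim-4low libraries. Tim-4high libraries were above Tim-4low libraries within every condition, and all no-tumor libraries were above all tumor libraries.

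Pf4 followed the same order. It stood at 510, 426 and 527 CPM in no-tumor Tim-4high and at 169, 161 and 145 in no-tumor Tim-4low libraries. With isotype Pf4 stood at 145, 115 and 116 CPM in Tim-4high and at 31.2, 22.3 and 48.3 in Tim-4low libraries. With anti-Tim-4 it stood at 66.8, 98.1 and 50.2 CPM in Tim-4high and at 32.9, 44.0 and 15.4 in Tim-4low libraries. The populations did not overlap within any condition, and within each population all no-tumor libraries were above all tumor libraries.

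The tumor lowered Cxcl13 by 3.40 ± 0.46 on the log2 scale in Tim-4high cells, or 10.6-fold (edgeR adjusted p = 2.02e-05), and by 3.61 ± 0.47 in Tim-4low cells, or 12.2-fold (edgeR adjusted p = 1.6e-05). Pf4 fell by 1.96 ± 0.33 and 2.22 ± 0.33 (edgeR adjusted p = 0.000142 and 6e-05). Cxcl13 was 3.80-fold lower in Tim-4low than in Tim-4high cells without a tumor (-1.93 ± 0.43, edgeR adjusted p = 0.004) and 4.40-fold lower with isotype (-2.14 ± 0.44, edgeR adjusted p = 0.00279). Pf4 was 3.08-fold and 3.69-fold lower (-1.62 ± 0.32 and -1.88 ± 0.33, edgeR adjusted p = 0.00177 and 0.000903). The summed macrophage markers were lower as well, from 44470 to 52700 CPM in no-tumor Tim-4high libraries to 28660 to 30360 in isotype ones. Lyz2 made up most of that sum without a tumor, with a mean of 31719 CPM against 7411 with isotype in Tim-4high cells. Among the other markers there, Csf1r and Mertk had lower means with isotype. Adgre1, Cd14, Itgam, Fcgr1, C1qa, C1qb and C1qc had higher ones. The part of macrophage content in the falls of Cxcl13 and Pf4 was not tested.

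Under anti-Tim-4, Cxcl13 was again lower in Tim-4low cells (-2.22 ± 0.45, edgeR adjusted p = 0.026), a call that 5 of 6 fits with a library left out lost (edgeR adjusted p = 0.0355 to 0.132). Pf4 differed by -1.22 ± 0.33 and did not pass (edgeR adjusted p = 0.0846), but passed with library numbers as a block (-1.28, edgeR adjusted p = 0.00275). No antibody change of Cxcl13 or Pf4 passed (-0.81 ± 0.43 and -0.80 ± 0.32 in Tim-4high, -0.89 ± 0.44 and -0.14 ± 0.32 in Tim-4low cells, edgeR adjusted p = 0.127 to 0.891), though that of Pf4 in Tim-4high cells did in a fit of the compared groups alone (-0.81, edgeR adjusted p = 0.0353).

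Cxcl13 and Pf4 were each other's most similar gene among 8394 candidates over the 18 libraries (r = 0.986), and the similarity was there also within the 6 no-tumor libraries (0.994), within the 12 tumor libraries (0.972) and after group means were removed (0.915). Their ratio differed between no-tumor and tumor libraries, since Cxcl13 was 1.44 to 2.08 times Pf4 in CPM in the no-tumor libraries and 0.307 to 0.765 times Pf4 in the tumor libraries, with no overlap. Platelet genes were near 0 beside Pf4. Summed over 6 platelet genes other than Pf4 they stood at 0.971 to 7.29 CPM, and Ppbp, the neighbour of Pf4 and a defining platelet gene, at no more than 0.222 CPM in any library. The part of platelets in the Pf4 level was not tested.

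Cxcl14 (chr13:56288643-56296551, minus strand) rose with the tumor and differed little between populations. Without a tumor Cxcl14 stood at 9.84, 11.3 and 9.90 CPM in Tim-4low and at 15.6, 12.1 and 9.17 in Tim-4high libraries. With isotype it stood at 34.6, 40.9 and 30.2 and at 31.3, 38.7 and 31.0, and with anti-Tim-4 at 24.2, 26.8 and 26.0 and at 29.1, 29.9 and 28.6, in the same order. All tumor libraries were above all no-tumor libraries, and the populations overlapped except under anti-Tim-4.

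The tumor raised Cxcl14 by 1.45 ± 0.15 on the log2 scale, or 2.74-fold, in Tim-4high cells (edgeR adjusted p = 1.94e-06) and by 1.77 ± 0.15, or 3.41-fold, in Tim-4low cells (edgeR adjusted p = 3.73e-07). No population difference passed (-0.25 to 0.07, edgeR adjusted p = 0.284 to 0.802), apart from a difference of -0.42 without a tumor once no-tumor Tim-4high library 3 was left out (edgeR adjusted p = 0.0435), nor did the antibody changes of -0.21 ± 0.15 and -0.46 ± 0.15 in Tim-4high and Tim-4low cells (edgeR adjusted p = 0.401 and 0.22). Mesothelial and stromal markers stood higher with the tumor too, from 0.671 to 5.34 CPM summed over 12 genes in the no-tumor libraries to 10.2 to 80.0 in the isotype libraries. In isotype Tim-4low cells that sum was highest in library 3 (80.0) and Cxcl14 was lowest there. Tumor epithelium markers, summed over 3 genes, also stood higher with the tumor. Their sum was 0.165 to 3 CPM in the no-tumor, 6.75 to 22.6 in the isotype and 11.3 to 19.4 in the anti-Tim-4 libraries. In isotype Tim-4low cells this sum and Cxcl14 were both highest in library 2. In isotype Tim-4high cells the sum was highest in library 3 and Cxcl14 in library 2. The part of other cells in the Cxcl14 level was not tested. The genes most like Cxcl14 were Clptm1l (r = 0.981), Cyfip1 (0.975) and Chid1 (0.973).

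**Figure D5:**
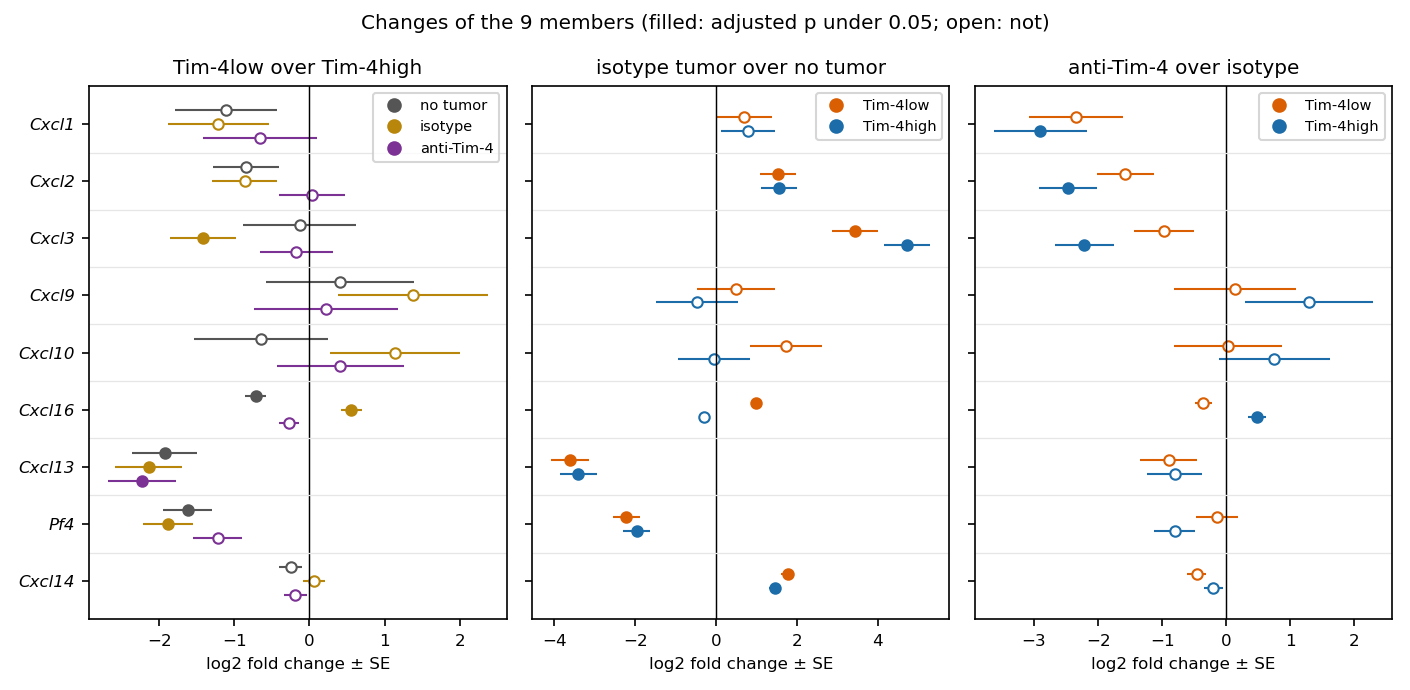
Log2 fold changes of the 9 genes with their standard errors: Tim-4low over Tim-4high in each condition, the tumor over none and the antibody over isotype, both drawn for the 2 populations apart; filled points passed an adjusted p of 0.05. Cxcl13 lies left of 0 at all 3 population differences, Cxcl16 changes side between no tumor and isotype, and Cxcl1, Cxcl2 and Cxcl3 are called with anti-Tim-4 in Tim-4high cells.

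Counted over the 9 genes, the tumor changed 5 in Tim-4high cells (3 up, 2 down) where 51.5% of all genes tested were called (27.3% up, 24.1% down), and 6 in Tim-4low cells (4 up, 2 down) where 49.8% were called (25.2% up, 24.6% down), so these counts are near the background. The median change was -0.05 in Tim-4high and 0.99 in Tim-4low cells, beside -0.0071 and -0.022 over all genes. Between populations, 3 of 9 were called without a tumor, all lower in Tim-4low cells, with 24.6% of all genes called and 11.8% lower. With isotype 4 were called (1 up, 3 down), with 24.1% of all genes called (11.3% up, 12.9% down), and with anti-Tim-4 1 was called, lower, with 1.39% of all genes called and 0.849% lower. The median differences were -0.72, -0.86 and -0.19, beside 0.016, 0.011 and -0.0040 over all genes.

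With library numbers as a block, the calls between populations rose to 6 in no-tumor, 8 in isotype and 2 in anti-Tim-4 mice. The block assumes that libraries sharing a number within a condition are paired, which no label states. How many of all genes the block called between no-tumor or isotype populations is not given here, so the 6 and 8 have no background beside them. The calls added without a tumor were Cxcl1 (-1.13, edgeR adjusted p = 0.00154), Cxcl2 (-0.83, edgeR adjusted p = 0.000826) and Cxcl9 (0.71, edgeR adjusted p = 0.0309). The direction of Cxcl9 there hung on single libraries, since without the block its difference of 0.41 became -1.67 without no-tumor Tim-4low library 2 (edgeR adjusted p = 0.273) and 3.39 without no-tumor Tim-4high library 2 (edgeR adjusted p = 0.0257). With isotype they were Cxcl1 (-1.16, edgeR adjusted p = 0.000903), Cxcl2 (-0.84, edgeR adjusted p = 0.000681), Cxcl9 and Cxcl10, the last pair with the values given above. Cxcl3 was lower in isotype Tim-4low cells without the block (-1.42 ± 0.44, edgeR adjusted p = 0.0271), a call lost when any of isotype Tim-4low libraries 1 and 2 or isotype Tim-4high libraries 1 and 2 was left out (edgeR adjusted p = 0.0607 to 0.104).

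With anti-Tim-4, 4 of 9 were called in Tim-4high cells (1 up, 3 down), where 7.97% of all genes tested were called (4.3% up, 3.67% down). The libraries of the compared groups did not overlap for any of the 9 genes there, which held for 39.2% of all genes. The calls depended on single libraries: 0 of 9 were called without isotype Tim-4high library 1 or without anti-Tim-4 Tim-4high library 3, with 10 and 31 calls over all genes in place of 1324. The log2 changes of Cxcl1, Cxcl2 and Cxcl3 stayed between -3.28 and -2.05 with each of the 6 libraries left out in turn. Without both isotype libraries 3, which held markers of neutrophils and of several other cell types, all 3 were still called.

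In Tim-4low cells 0 of 9 were called by edgeR with anti-Tim-4, where 0.325% of all genes were called, 4 had an unadjusted p under 0.05 (Cxcl1, Cxcl2, Cxcl14 and Cxcl16), and DESeq2 called 1, Cxcl2 (-1.57, adjusted p = 0.0488). The groups did not overlap for 5 genes there (Cxcl1, Cxcl2, Cxcl3, Cxcl14 and Cxcl16), against 18% of all genes. The median change was -0.46 in Tim-4low and -0.80 in Tim-4high cells, beside -0.016 and -0.0045 over all genes.

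Genes that act in the same pathways were read from lists written for the purpose. Of 18 genes of NF-kB signalling and its feedback, 1 rose (Nfkbie, 0.56, edgeR adjusted p = 0.0399) and 2 fell with anti-Tim-4 in Tim-4high cells, where 7.97% of all genes were called. Those that fell were Nfkbiz (-1.72, edgeR adjusted p = 0.0207), an NF-kB cofactor induced by stimulation, and Zfp36 (-1.18, edgeR adjusted p = 0.0152), which binds AU-rich mRNAs such as those of early chemokines and speeds their decay. Nfkbiz stood at 80.3, 56.3 and 41.9 CPM in isotype Tim-4high and at 20.7, 17.8 and 15.8 in anti-Tim-4 Tim-4high libraries, with no overlap. In Tim-4low cells the changes of -1.12 for Nfkbiz and -0.68 for Zfp36 did not pass (edgeR adjusted p = 0.251 and 0.266). Nfkbia, the feedback inhibitor, rose with the tumor by 1.35 in Tim-4high and 1.39 in Tim-4low cells (edgeR adjusted p = 2.74e-06 and 2.44e-06), and over the list 3 rose and 6 fell in Tim-4high and 4 rose and 4 fell in Tim-4low cells, near the 51.5% and 49.8% of all genes called.

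Of 16 genes of interferon signalling, 5 rose and 4 fell with the tumor in Tim-4high cells, and 8 rose and 2 fell in Tim-4low cells, beside 51.5% and 49.8% of all genes called. In isotype mice 7 were higher and 2 lower in Tim-4low cells, beside 11.3% of all genes higher and 12.9% lower. Among the 7 were Irf5 (0.83, edgeR adjusted p = 0.000122), Ifngr1 (0.82, edgeR adjusted p = 0.000669) and Irf8.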

How the data were processed

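RNA was sequenced from Tim-4low and Tim-4high peritoneal macrophages in 18 libraries, 3 in each of 6 groups, from cells frozen in trizol and sent to a laboratory for RNA extraction, per the labels' protocols. The authors deposited unnormalized estimated counts, 1 table for genes and 1 for transcripts. STAR, DESeq2 and mm10 are named in the submitters' processing notes, while the sources used here do not give the counting tool, annotation or use of strand. All 23511 symbols matched GENCODE M21 on mm10, which gave lengths and positions. The gene identifiers came from the transcript table.

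The counts were made whole by rounding, and 16609 genes passed filterByExpr. In no library did the removed genes hold over 0.0878% of the counts. All 6 groups entered 1 quasi-likelihood model in edgeR 4.0.16 (R 4.3.3) with TMM scaling, leaving 12 residual degrees of freedom, with Benjamini-Hochberg adjustment over all 16609 genes. CPM was computed from the estimated counts with TMM library sizes. The 9 comparisons set Tim-4low over Tim-4high within a condition (3), isotype tumor over no tumor (2) and anti-Tim-4 over isotype (2) within a population, and tested whether the latter effects differ by population (2). The test was also run on counts simulated from its own fitted spread, without pairing or outlying libraries. That run cannot show how the test performs where libraries are paired or outlying.

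The 9 genes and the lists were chosen with earlier results of these data known. The naming rule took all 9 genes, the 3 genes with the highest Pearson correlation of log2 CPM to each among genes with a mean of at least 10 CPM, and called genes of the lists. Within a condition, the 9 pairs of Tim-4low and Tim-4high libraries that share a number had correlated deviations from their group means (0.155 to 0.4885), against -0.4323 to 0.2088 for libraries of differing number. Numbers were therefore treated as pairing libraries within a condition in the alternative with a block. These ranges overlap, and deviations within a group are tied to each other, so the ranges are not independent. No label says that a number is 1 mouse. Between conditions, libraries sharing a number correlated at -0.2936 to 0.1602 and were not treated as paired. Alternatives were RLE factors, no filter, robust estimation, DESeq2 1.42.0, a fit of the compared groups alone, a replicate block and leaving out each library. The authors' 2 deposited comparison tables were not used here.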

Additional observations from a re-analysis of the deposited data

Results flagged for a closer look

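The effect of the tumor on Cxcl16 differed between the populations by 1.28 on the log2 scale (edgeR adjusted p = 0.00172), and that of the antibody by -0.84 (edgeR adjusted p = 0.0362), both by a test of the difference itself. Cxcl16 rose from 26.5 ± 0.889 to 52.7 ± 2.77 CPM (SD, n = 3) with the tumor in Tim-4low cells and went from 43.6 ± 5.81 to 35.7 ± 5.16 in Tim-4high cells, and with anti-Tim-4 it went to 41.1 ± 7.66 and 49.7 ± 5.43. Sdc4, a surface proteoglycan that binds chemokines, and Irf8 also had a called interaction with the tumor (1.57 and 1.79, edgeR adjusted p = 0.0285 and 0.00791), and Sdc4 with the antibody (-1.51, edgeR adjusted p = 0.0406).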

How the results depend on the processing

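Over 81 values (9 genes in 9 comparisons) and their alternatives, 50 of 1214 recomputed values changed sign with neither value called. The reversals that passed were those of Cxcl9 and Cxcl10 with the tumor in Tim-4high cells, at 2.51 and 2.23 without both no-tumor libraries 2, and of Cxcl10 at 2.23 without no-tumor Tim-4high library 2 alone (-0.648 to 2.23 with 1 library left out). With 1 library left out, the counts over the 9 genes ranged from 3 to 4 for the populations without a tumor, 3 to 4 with isotype and 0 to 1 with anti-Tim-4, 5 to 6 and 6 to 7 for the tumor (Tim-4high, then Tim-4low), 0 to 4 and 0 to 0 for the antibody, 1 to 1 for the tumor interaction and 0 to 1 for the antibody interaction. In the same order, the counts over all genes were 2796 to 3888, 2625 to 3485, 25 to 139, 7627 to 8183, 7061 to 7585, 10 to 1160, 2 to 40, 321 to 889 and 1 to 1418.

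With the replicate block, 6, 8 and 2 of the 9 were called between populations and 3 in the antibody interaction, and over all genes 1182 (populations under anti-Tim-4), 1858 and 2609 (tumor and antibody interactions). Its counts over all genes between no-tumor and between isotype populations are not given here. With such a block 2 tumor changes also passed, although numbers were not treated as pairing libraries across conditions: Cxcl16 in Tim-4high cells (-0.29, edgeR adjusted p = 0.0395) and Cxcl10 in Tim-4low cells (2.10, edgeR adjusted p = 0.0363). The block changed no call of the 9 genes other than these and those in the report. In fits of the compared groups alone, 7 of the 9 were called between isotype populations, 7 with the antibody in Tim-4high cells and 2 in its interaction, and over all genes 2472, 445, 2990, 3 and 976 (populations without a tumor and under anti-Tim-4, antibody in Tim-4high and Tim-4low cells, antibody interaction). The count over all genes between isotype populations in these fits is not given here. The 7 of 9 between them therefore has no background beside it. DESeq2 called 2 of the 9 between anti-Tim-4 populations and 1 with the antibody in Tim-4low cells, and over all genes 527, 2102, 287, 1038 and 1282 (anti-Tim-4 populations, antibody in Tim-4high and Tim-4low cells, tumor and antibody interactions). Without a filter the antibody in Tim-4low cells gave 34 genes. Of the alternatives added after seeing the data, leaving out both no-tumor libraries 1 gave 911 for the tumor interaction. Leaving out both isotype libraries 3 gave 210 and 5 for the antibody (Tim-4high, then Tim-4low), 264 and 9 for the tumor and antibody interactions, and 0 of the 9 in the antibody interaction. The causes were not tested, though fits of 2 groups or without a library have fewer samples. Cxcl3 without a tumor, at 9.004 and 10.0 counts a group, gives imprecise folds.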

Other observations

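Cxcl12, the ligand of CXCR4 and Ackr3, fell with the tumor further than any of the 9 genes, from 67.6, 26.8 and 45.4 CPM to 1.73, 1.63 and 1.46 in Tim-4high libraries (-4.86 ± 0.32 on the log2 scale, edgeR adjusted p = 2.23e-08) and from 21.03, 14.5 and 18.8 CPM to 0.571, 0.693 and 0.831 in Tim-4low libraries (-4.69 ± 0.34, edgeR adjusted p = 5.88e-08). Its scavenging receptor Ackr3 rose with the tumor, from 25.1 to 37.4 CPM to 211 to 265 in Tim-4high cells (2.86 ± 0.42, edgeR adjusted p = 4.61e-05) and by 2.77 ± 0.43 in Tim-4low cells (edgeR adjusted p = 8.34e-05). Ackr3 was lower in Tim-4low cells without a tumor (-1.74, edgeR adjusted p = 0.00667) and with isotype (-1.84, edgeR adjusted p = 0.00415). Cxcl5, another CXCR2 ligand, stayed at or below 1.76 CPM in every library. Of 6 genes for trimming, shedding or carrying chemokines, 4 rose with the tumor in Tim-4high cells, and 5 rose and 1 fell in Tim-4low cells, beside 51.5% and 49.8% of all genes called. Among them Srgn, the core protein of a granule proteoglycan that carries chemokines, went from 487 ± 26.0 to 2720 ± 138 CPM in Tim-4high cells (SD, n = 3; edgeR adjusted p = 1.27e-09).

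Of 10 tested genes of CXC and other chemokine receptors, among them Ackr2, Ccrl2 and Cx3cr1, 6 rose and 1 fell with the tumor in Tim-4high cells. Over all genes 27.3% were called up and 24.1% down there. Cxcr2 stood at 9.44, 9.67 and 53.6 CPM in isotype Tim-4high libraries and at no more than 0.635 without a tumor. Its highest library is isotype library 3 in both populations, which also held markers of neutrophils and of several other cell types, and Cxcr3 (9.20 against 1.65 and 1.27 CPM) and Cxcr6 (9.70 against 1.84 and 1.59) were high there too. The fall of Cxcr2 with anti-Tim-4 in Tim-4high cells (-2.66, edgeR adjusted p = 0.0448) was -1.32 and did not pass without both isotype libraries 3 (edgeR adjusted p = 0.116). Ccrl2 fell as well (-1.33, edgeR adjusted p = 0.0346), and was -1.42 without both isotype libraries 3, where it did not pass (edgeR adjusted p = 0.0842). Cxcr5, the receptor of Cxcl13, stood at 93.7 and 28.5 CPM in the no-tumor libraries 1, where B cell markers were high, and at 5.40 to 6.89 in the other no-tumor libraries.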
